A study of Mus musculus with 11 samples.

Results

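Rosiglitazone given with a high-fat diet was compared with the diet alone in inguinal white adipose tissue of Raptor floxed mice, called WT, by bulk RNA sequencing. The libraries were chosen by their genotype and treatment characteristics, which gave 6 of the 11 libraries of the series. In 3 of them the C57BL6/J mice had eaten the diet with rosiglitazone at 30 mg per kg of body weight a day, and in the other 3 the same diet without it. All were 16 weeks old after 8 weeks of treatment, carried floxed Raptor alleles (gene Rptor) and, as littermate controls, served as WT to mice that lose Raptor in adipocytes through a Cre recombinase driven by the adiponectin promoter. Those 5 KO libraries, 3 with rosiglitazone and 2 on diet, entered the same model and are used below only where the WT response was tested against that of KO tissue.

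Inguinal fat is a subcutaneous depot that holds adipocytes beside stromal, vascular and immune cells and an embedded lymph node. PPARG is the nuclear receptor without which adipocytes do not form. It pairs with the retinoid X receptor on DNA elements made of direct repeats and, once bound by a thiazolidinedione such as rosiglitazone, raises genes that take up, store and burn fatty acids. In rodents, thiazolidinediones are known to increase mitochondria in white fat and to bring out features of brown fat. Mitochondrial proteins are encoded mostly in the nucleus, by genes on which the factors ESRRA and NRF1 act.

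The titles and the characteristics of the 6 WT libraries disagree on which mice received the drug. Groups follow the characteristics here, and with the titles every sign in the WT comparison would turn round while no size or p would change. The comparison with KO tissue would not only turn round, and its values under the titles are given with it. Whether each library is 1 mouse is not in the labels, and the p-values therefore reflect only how much these samples vary, which could be technical. Depth was 18437526 to 40925952 estimated reads with rosiglitazone and 16088059 to 27160069 on diet, and no 2 libraries held the same values.

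In its adipocyte and lymphocyte markers, 1 diet library stood apart from the other two. The 22 mature adipocyte markers summed to 46463, 52996 and 47577 CPM with rosiglitazone, against 48896, 20112 and 17059 CPM on diet alone, where CPM is a read count scaled to depth and between libraries. Diet replicate 1 thus lay among the rosiglitazone libraries, and diet replicates 2 and 3 lay lower. The 20 B-cell markers, which a lymph node would bring, summed to 805, 249 and 585 CPM with rosiglitazone, against 563, 2060.2 and 1812 CPM on diet alone, and T and NK cell markers to 201, 33.4 and 263 CPM with rosiglitazone, against 49.8, 649 and 523 CPM on diet alone. Here diet replicates 2 and 3 were the highest and diet replicate 1 lay within the range of the rosiglitazone libraries. Skeletal muscle markers took 0.0252%, 0.905% and 1.84% of reads with rosiglitazone, against 0.0632%, 1.97% and 0.139% on diet, so both groups held libraries rich and poor in them. Their 20 genes summed to 281 to 21465 CPM with rosiglitazone and 743 to 17494 CPM on diet, 0 were called in edgeR, DESeq2 and at an unadjusted p under 0.05 in edgeR, with 1 lower in limma-voom, 19 had a fold change above 0, and none was at 0 in all 6 libraries. In bulk tissue, fewer cells of a type and less RNA per cell cannot be told apart.

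**Figure D1:**
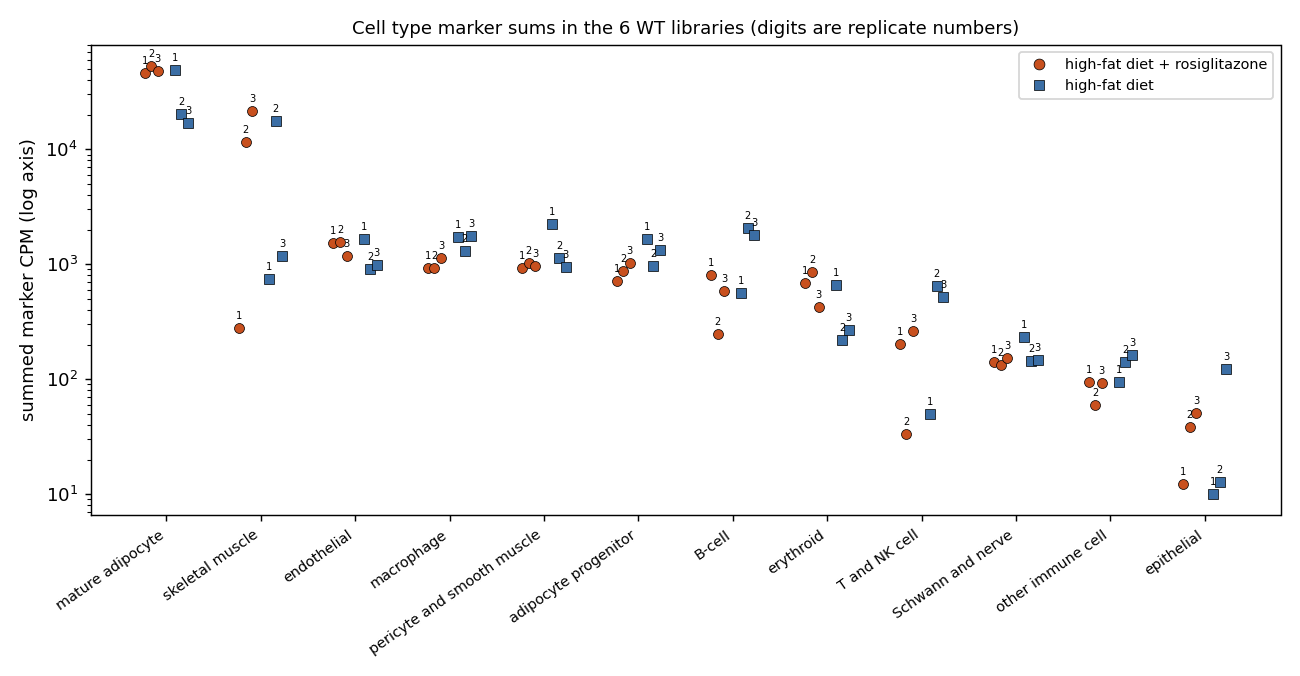
Summed CPM of the marker genes of each cell type (log axis) in the 3 WT libraries with rosiglitazone (circles) and the 3 on diet alone (squares), with replicate numbers above the points. Diet replicate 1 sits with the rosiglitazone libraries in adipocyte, B-cell and T-cell markers, and skeletal muscle markers vary within both groups.

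Of 26960 genes tested, 578 (2.14%) passed an adjusted p of 0.05 in edgeR's quasi-likelihood test. With rosiglitazone 418 genes (1.55%) were higher and 160 (0.593%) lower, and 4699 (17.4%) had an unadjusted p under 0.05. In each of the 578 the 3 libraries with rosiglitazone did not overlap the 3 on diet in CPM, a state met by 13.4% of all tested genes upward and 10.4% downward. Among the 418 higher genes diet replicate 1 was the highest diet library in 329, and the median log2 ratio of the rosiglitazone mean was 1.08 to diet replicate 1 and 1.53 to the mean of diet replicates 2 and 3 (0.1 CPM added). Among the 160 lower genes those medians were -1.21 and -1.27. The count depended strongly on single libraries: it was 2779 without diet replicate 1, 27 and 30 without diet replicates 2 and 3, and 39, 18 and 67 without rosiglitazone replicates 1, 2 and 3. The sign of at least 577 of the 578 genes was the same in each of these fits. Since their groups did not overlap, leaving out a library could hardly turn a sign. Of 22744 genes with an adjusted p, DESeq2 called 1251 higher (5.5%) and 727 lower (3.2%), and limma-voom with library weights called 4558 higher (16.9%) and 2767 lower (10.3%). Without diet replicate 1, 7.68% of genes were called higher and 2.7% lower in edgeR. These shares are the background for the counts of list members below. Single genes said below not to pass did not pass in edgeR, and some of them were called by DESeq2, limma-voom or both.

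**Figure D2:**
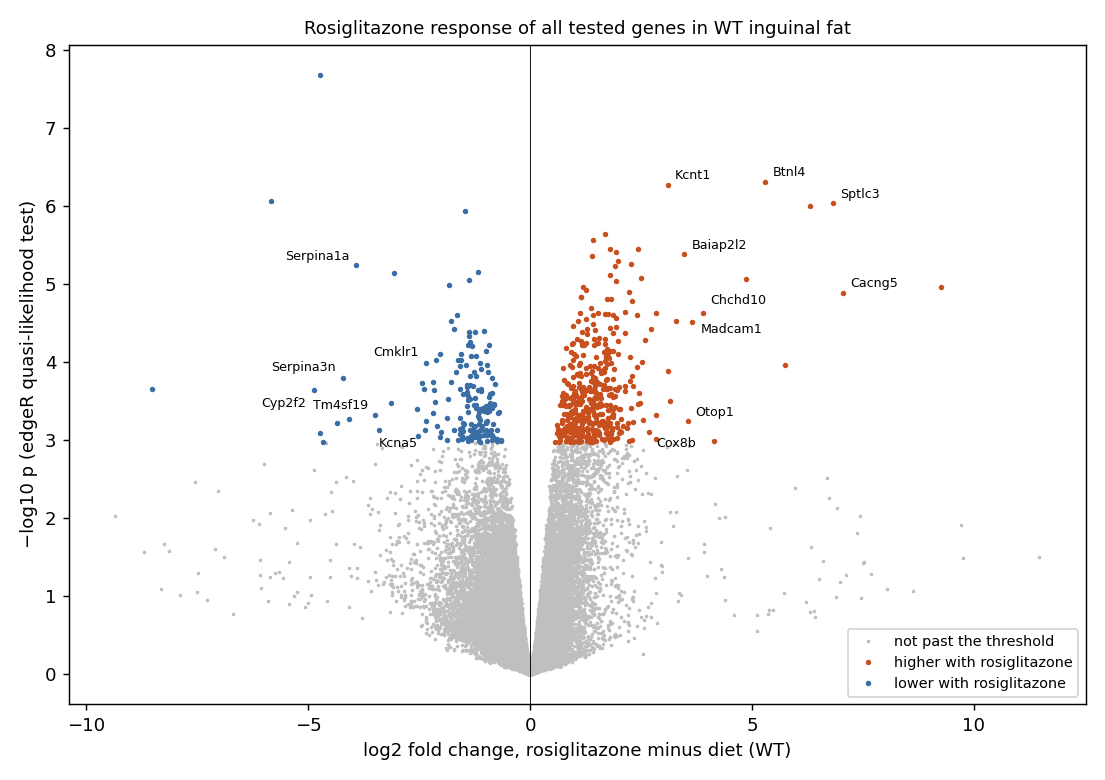
Log2 fold change of rosiglitazone over diet in WT tissue (x axis) against −log10 of the unadjusted p (y axis) for the 26960 tested genes, with the 418 higher genes in orange and the 160 lower in blue. Labels mark 15 of the genes with the highest and lowest fold changes, among them Sptlc3 at 6.82 and Cyp2f2 at -4.88.

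Genes with the highest fold changes included several that were nearly silent on diet. The 12 highest and 12 lowest genes were chosen among called genes whose groups did not overlap in CPM. Sptlc3, a subunit of serine palmitoyltransferase, the enzyme that starts sphingolipid synthesis (ENSMUSG00000039092.9, GRCm38 chromosome 2, 139493913 to 139637674, plus strand), stood at 18.5, 46.1 and 35.3 CPM with rosiglitazone, against 0.304, 0.0980 and 0.469 CPM on diet alone. All 3 libraries with rosiglitazone were far above all 3 on diet, with a log2 fold change of 6.82 ± 0.58 (SE, here and below; adjusted p = 0.00453), and the transcript Sptlc3-202 carried 2359 of its reads with rosiglitazone (92.2%). Cacng5, a transmembrane regulator of ion channels (ENSMUSG00000040373.12, GRCm38 chromosome 11, 107874605 to 107915055, minus strand), had 22.4, 28.3 and 20.5 CPM with rosiglitazone, against 0.390, 0 and 0.104 CPM on diet alone, a log2 fold change of 7.06 ± 0.88 (adjusted p = 0.0113). One diet library held no read of it. Btnl4, a butyrophilin-like membrane protein of the immunoglobulin superfamily (ENSMUSG00000058435.6, GRCm38 chromosome 17, 34466562 to 34477318, minus strand), had 21.7, 17.5 and 13.6 CPM with rosiglitazone, against 0.651, 0.246 and 0.417 CPM on diet alone (5.30 ± 0.47, adjusted p = 0.00453). Its neighbours Btnl6 (6.30) and Btnl5-ps (4.87), which were named after their values were seen, also rose, and reads of these near-identical genes can be divided wrongly among them. The promoter of Sptlc3, which was called in every fit that left out 1 library, is shown from 250 bases before to 50 after its start (RefSeq, GRCm38.p6, chr2:139493663-139493962, plus strand). It held 0 matches to any of the motifs searched below.
Sptlc3: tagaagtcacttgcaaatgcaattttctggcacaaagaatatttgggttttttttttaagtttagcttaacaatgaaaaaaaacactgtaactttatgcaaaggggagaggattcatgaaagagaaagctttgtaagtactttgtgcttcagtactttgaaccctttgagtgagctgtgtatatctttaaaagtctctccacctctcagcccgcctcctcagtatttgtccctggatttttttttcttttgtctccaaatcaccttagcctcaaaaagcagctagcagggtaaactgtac

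Further genes of this group have roles in membranes, mitochondria and lipid oxidation. Chchd10, a protein of the mitochondrial intermembrane space, had 119, 199 and 121 CPM with rosiglitazone, against 7.07, 14.8 and 7.67 CPM on diet alone (3.89 ± 0.53, adjusted p = 0.0142). Otop1, a proton channel known from brown fat, had 198, 240.2 and 148 CPM with rosiglitazone, against 21.04, 24.6 and 4.49 CPM on diet alone (3.55 ± 0.70, adjusted p = 0.04). Diet replicate 3 was the lowest library for Otop1, while for Chchd10 diet replicates 1 and 3 were alike. Ephx2, the soluble epoxide hydrolase that breaks down epoxides of fatty acids, had 1536, 2333 and 1463 CPM with rosiglitazone, against 285, 144 and 122 CPM on diet alone (3.27 ± 0.46, adjusted p = 0.0154). It combined a high level with a 9.68-fold difference, and diet replicate 1 was the highest of its diet libraries. Madcam1, an adhesion molecule that lymphocytes bind on vessel walls, had 6.64, 7.56 and 4.31 CPM with rosiglitazone, against 0.217, 0.344 and 0.939 CPM on diet alone (3.64 ± 0.51, adjusted p = 0.0154). The lymphocyte markers had a median log2 fold change of -1.62 for B cells and -1.31 for T and NK cells. Of these markers 0 were called in edgeR, and their sums overlapped between the groups, with diet replicate 1 within the range of the rosiglitazone libraries. Baiap2l2, which links membranes to actin (3.47 ± 0.39), Kcnt1, a sodium-activated potassium channel (3.10 ± 0.28), Cyp4b1, a fatty acid hydroxylase of the cytochrome P450 family (2.71 ± 0.39), Cox8b, a subunit of cytochrome oxidase known from muscle and brown fat (2.68 ± 0.56) and Acadvl, an acyl-CoA dehydrogenase for very long fatty acids (2.58 ± 0.39), completed the 12 highest genes.

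The 12 lowest genes had varied roles. Serpina3n, a protease inhibitor of the acute-phase response (ENSMUSG00000021091.8, GRCm38 chromosome 12, 104406729 to 104414329, plus strand), fell to 9.20, 10.5 and 16.05 CPM with rosiglitazone, against 444, 128 and 92.8 CPM on diet alone (-4.22 ± 0.71, adjusted p = 0.0266). Diet replicate 1, the adipocyte-rich diet library, was the highest of all 6, and close paralogs in mice can share reads with it. Cyp2f2, a cytochrome P450 of xenobiotic metabolism (ENSMUSG00000052974.8, GRCm38 chromosome 7, 27119909 to 27133660, plus strand), had 0.462, 0.0930 and 0.444 CPM with rosiglitazone, against 10.6, 3.24 and 14.8 CPM on diet alone (-4.88 ± 0.87, adjusted p = 0.0287). Cmklr1, the receptor of the adipokine chemerin, had 36.1, 27.1 and 41.5 CPM with rosiglitazone, against 263, 142 and 129 CPM on diet alone (-2.35 ± 0.38, adjusted p = 0.0228). Trabd2b, a membrane protease that inactivates Wnt proteins, had 4.41, 4.54 and 3.87 CPM with rosiglitazone, against 47.5, 14.3 and 13.5 CPM on diet alone (-2.55 ± 0.49, adjusted p = 0.0339). For Serpina3n, Cmklr1 and Trabd2b the order on diet was the same, with replicate 1 highest. That no library with rosiglitazone reached the lowest diet library was required by the choice of these genes. Tm4sf19, a four-span membrane protein (-3.49 ± 0.69), Kcna5, a voltage-gated potassium channel (-2.36 ± 0.50), Ugt8a, which makes galactosylceramide (-2.18 ± 0.43), and Ankrd29 (-2.17 ± 0.39) were also among the 12 lowest.

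**Figure D3:**
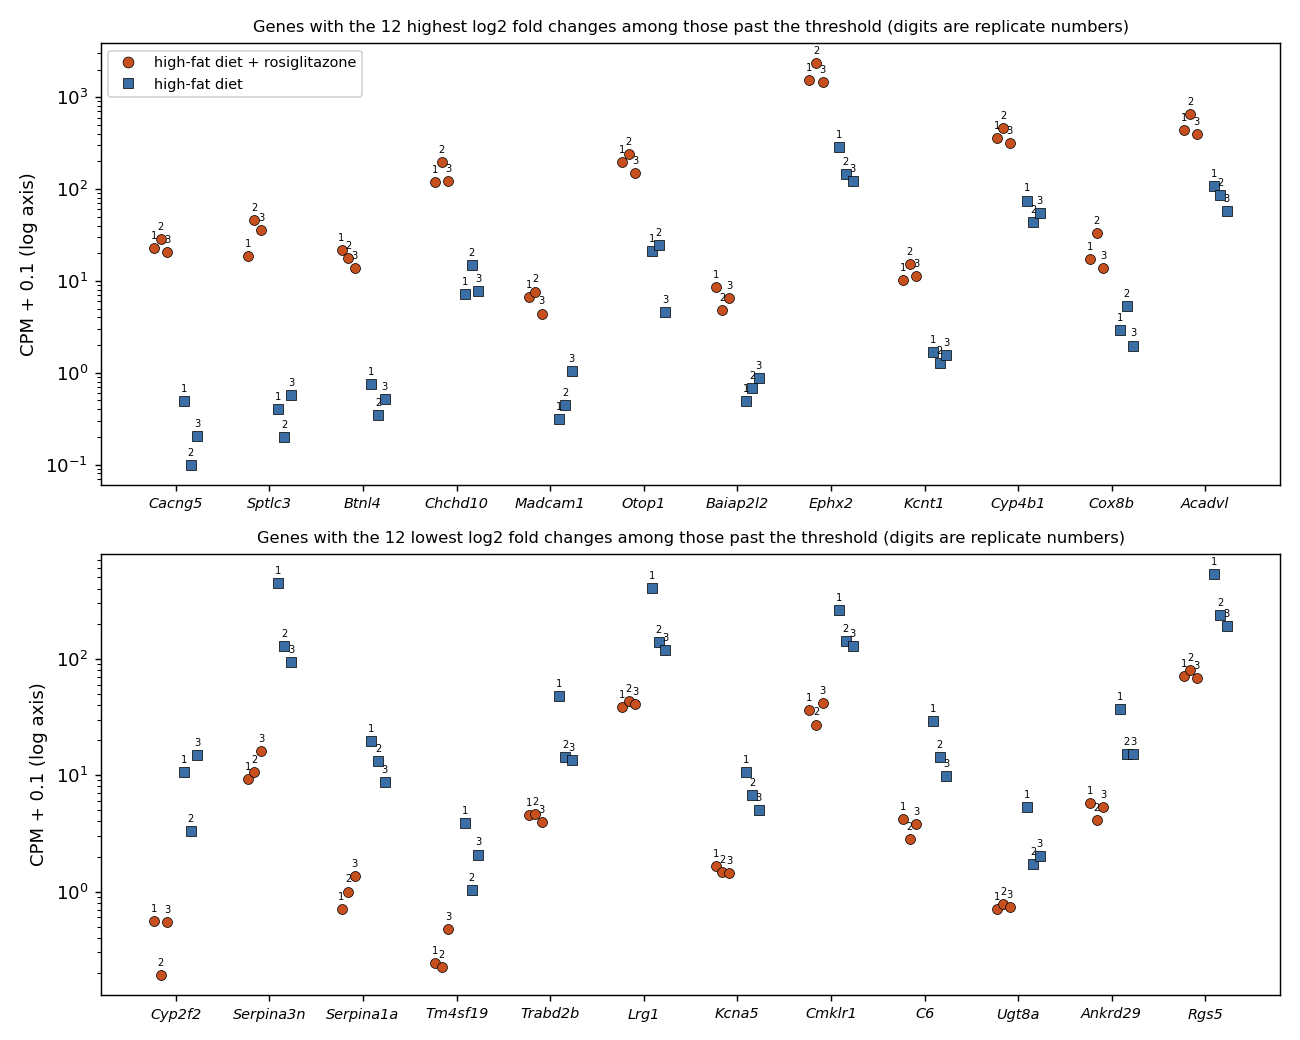
CPM plus 0.1 (log axis) of the 12 genes with the highest and the 12 with the lowest log2 fold changes in each WT library, rosiglitazone as circles to the left and diet alone as squares to the right of each gene, with replicate numbers. The genes were chosen among those whose 2 groups do not overlap, and diet replicate 1 is the highest diet library in 11 of the 12 lowest genes.

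Many genes of the respiratory chain rose. Of 38 complex I subunits encoded in the nucleus, which pass electrons from NADH to ubiquinone, 24 passed the test as higher and 0 as lower, with a median log2 fold change of 1.43, against 1.55% higher and a median of -0.05 over all genes. Ndufs7, a core iron-sulphur subunit, had 71.4, 84.8 and 72.9 CPM with rosiglitazone, against 32.4, 29.3 and 23.7 CPM on diet alone (1.42 ± 0.20, adjusted p = 0.0142). Of 29 genes of complexes II to IV and cytochrome c, 16 rose and 0 fell, with a median of 1.65. Cyc1, the haem protein of complex III, had 155, 194 and 145 CPM with rosiglitazone, against 45.5, 33.1 and 27.1 CPM on diet alone (2.23 ± 0.28, adjusted p = 0.0113), and Cox5b of complex IV had 32.5, 39.5 and 31.8 CPM with rosiglitazone, against 16.3, 11.5 and 10.95 CPM on diet alone (1.42 ± 0.20, adjusted p = 0.0159). In these genes the rosiglitazone libraries lay close together, with replicate 2 highest, and the diet libraries ran down in the order 1, 2 and 3. Of 18 ATP synthase subunits, which make ATP from the proton gradient, 7 rose, with a median of 1.17, among them Atp5d (1.73 ± 0.28) and Atp5e (1.22 ± 0.18). Of 13 protein genes of the mitochondrial genome 2 rose, mt-Co2 (1.81 ± 0.34) and mt-Nd4l (1.57 ± 0.30). In CPM all 13 were higher in every library with rosiglitazone than in every diet library, as were 13.4% of all tested genes. The share of unscaled reads from the whole mitochondrial genome overlapped, at 4.55, 8.63 and 6.28% with rosiglitazone, against 5.21, 4.02 and 3.78% on diet alone.

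The complex I count moved with single libraries and with muscle markers, while its median kept its sign. It was 34 without diet replicate 1, with a median of 1.65. With diet replicate 1 as the only diet library, where 0.0493% of all genes were higher and 0.306% lower, it was 0, with a median of 1.04, a fit in which the lone library is assumed to vary like the other groups. With skeletal muscle markers as a covariate 2 members were called, beside 0.408% of all genes higher and 0.126% lower, at a median of 1.38. Among the WT libraries with under 0.5% of reads in muscle markers, which were rosiglitazone replicate 1 and diet replicates 1 and 3, 0 were called, as of all genes, at a median of 1.18. The part of muscle RNA in these genes was otherwise not tested. With the mature adipocyte marker sum as a covariate 30 were called, beside 2.88% of all genes higher and 4.05% lower, at a median of 0.96. For complexes II to IV and cytochrome c the count was 24 without diet replicate 1, 0 with it as the only diet library and 5 with the muscle covariate, and for ATP synthase 15, 0 and 3 in that order.

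Lists of enzymes that feed the chain also held many called genes. In mitochondrial fatty acid oxidation 14 of 25 genes rose and 0 fell (median 1.88), against 1.55% of all genes higher and 0.593% lower. Acadvl, which takes the step at the longest chains, had 439.9, 656 and 393 CPM with rosiglitazone, against 107, 85.1 and 57.2 CPM on diet alone. Etfb, which receives the electrons of the acyl-CoA dehydrogenases, had 240.1, 292 and 217 CPM with rosiglitazone, against 75.7, 44.3 and 38.3 CPM on diet alone (2.24 ± 0.36, adjusted p = 0.0211). The 2 groups were apart in both genes, as in every called gene, and the lowest library with rosiglitazone was replicate 3. Eci1, an isomerase for unsaturated acyl chains (1.89 ± 0.31), and Acad10 (0.91 ± 0.14) rose too. Cpt1b, the carnitine palmitoyltransferase of muscle and brown fat, had 151, 249 and 125 CPM with rosiglitazone, against 6.68, 34.3 and 4.38 CPM on diet alone. It did not pass the test (3.53 ± 0.86, adjusted p = 0.072). Diet replicate 2, which was rich in muscle markers, was above the other diet libraries. Among the rosiglitazone libraries replicate 3 was the richest in these markers and the lowest in Cpt1b. With the muscle covariate the log2 fold change of Cpt1b was 3.74 (adjusted p = 0.0592 in edgeR), and the part of muscle RNA in it was otherwise not tested. Without diet replicate 1 the oxidation list had 20 called genes, with it as the only diet library 0 at a median of 1.24, and with the muscle covariate 3. In the list of pyruvate dehydrogenase and the TCA cycle 10 of 32 genes rose and 1 fell (median 1.46). Mdh2, the mitochondrial malate dehydrogenase, had 353, 474 and 326 CPM with rosiglitazone, against 142, 94.4 and 60.1 CPM on diet alone (1.96 ± 0.35, adjusted p = 0.0287). Higher genes of this list numbered 24 without diet replicate 1, 0 with it as the only diet library and 1 with the muscle covariate. Called kinases that switch pyruvate dehydrogenase off moved in opposite directions. Pdk2 was higher (1.77 ± 0.28, adjusted p = 0.0214), and Pdk3 had 6.04, 3.58 and 5.39 CPM with rosiglitazone, against 13.8, 12.3 and 12.4 CPM on diet alone (-1.36 ± 0.20, adjusted p = 0.0186). Pdk4 of the same family had 888, 2058 and 806 CPM with rosiglitazone, against 169, 347 and 81.1 CPM on diet alone and did not pass (2.65 ± 0.73, adjusted p = 0.1).

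Genes that build mitochondria had smaller medians than those of the chain. Of 78 mitochondrial ribosomal protein genes 7 rose, against 1.55% of all genes. Their median was 0.63, and 76 had a fold change above 0, as did 46.1% of all tested genes. Mrpl12 had 47.1, 56.9 and 52.1 CPM with rosiglitazone, against 20.3, 13.6 and 11.1 CPM on diet alone (1.79 ± 0.28, adjusted p = 0.0207), followed by Mrpl38 (1.20 ± 0.19), Mrps28 (1.01 ± 0.21) and Mrpl51 (0.61 ± 0.12). Without diet replicate 1 the count was 44. Cytosolic ribosomal protein genes had a median of -0.10 and were called in 0 of 79 genes in edgeR, where 4 higher and 1 lower had an unadjusted p under 0.05, 1 higher and 0 lower in DESeq2, and 5 higher and 3 lower in limma-voom. Among all tested genes 17.4% had an unadjusted p under 0.05. DESeq2 called 5.5% higher and 3.2% lower, and limma-voom 16.9% higher and 10.3% lower. Of 39 import, carrier and regulator genes 10 rose, among them Esrra, the nuclear receptor ESRRA, with 49.04, 50.5 and 42.9 CPM with rosiglitazone, against 21.6, 22.1 and 21.3 CPM on diet alone (1.13 ± 0.15, adjusted p = 0.0142). For Esrra the 3 diet libraries were almost equal, so that diet replicate 1 did not stand apart. Tomm40, the channel of the outer membrane (0.96 ± 0.17), and Timm44, which helps pull proteins across the inner one (0.96 ± 0.16), rose. The coactivator genes Ppargc1a (1.44 ± 0.47, adjusted p = 0.154) and Ppargc1b (1.06 ± 0.25, adjusted p = 0.0628) did not pass the test in edgeR. Their adjusted p was 0.039 and 0.0062 in DESeq2, and 0.0272 and 0.005 in limma-voom.

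**Figure D4:**
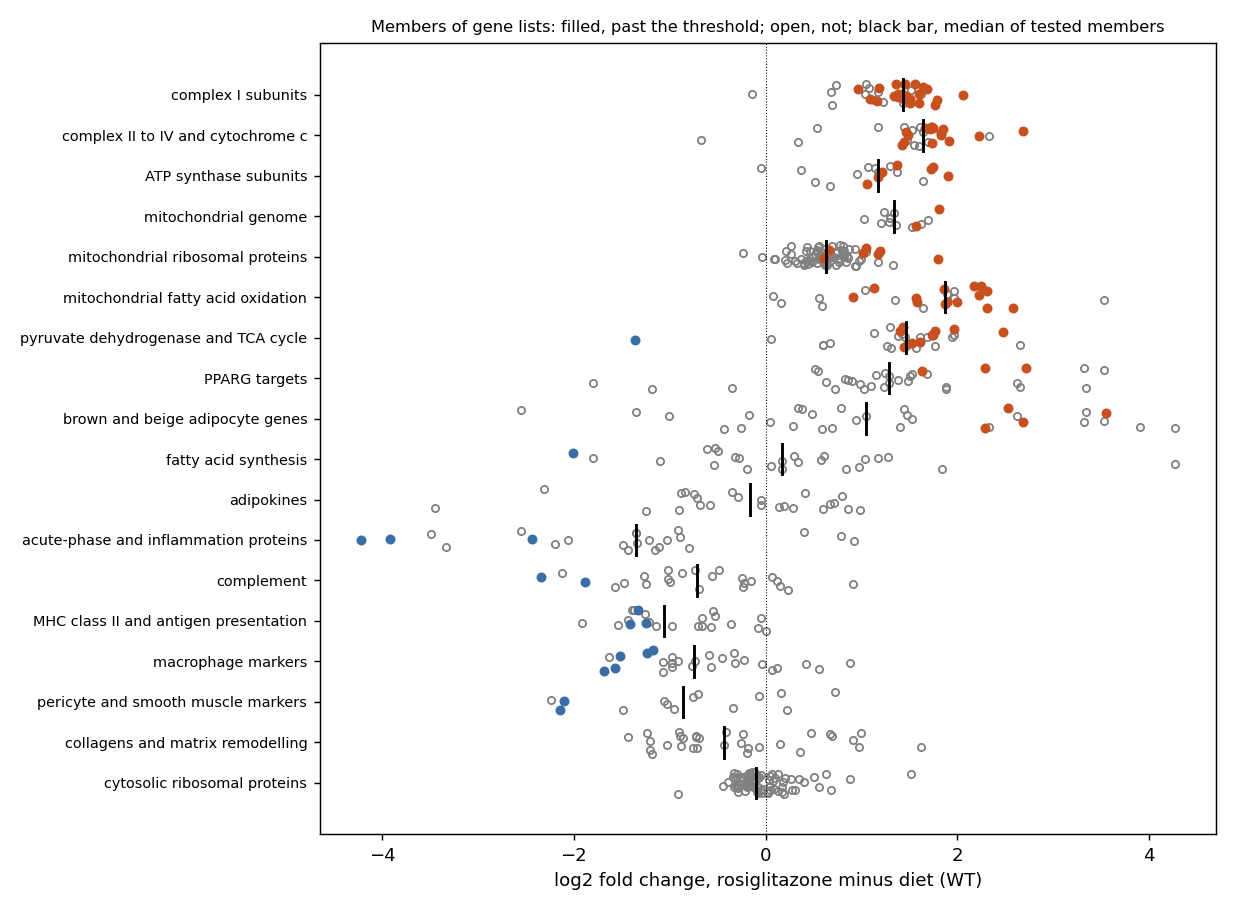
Log2 fold change of rosiglitazone over diet (x axis) for each tested member of 18 gene lists, with filled points for members past the threshold (orange higher, blue lower), open points for the others and a black bar at the median. The medians of the respiratory chain lists lie between 1 and 2, cytosolic ribosomal protein genes centre near 0, and acute-phase and macrophage genes lie mostly below 0.

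Because many of these genes moved together, the promoters of called genes were searched for binding motifs on both strands, as a description. The PPARG element, AGGNCA repeated after 1 base of any kind, lay in 1 of 297 higher genes with a promoter in the RefSeq table (0.337%), in 0 of 111 lower genes and in 55 of 14951 tested genes (0.368%). The gene was Pbld1 (1.28 ± 0.27, named after its values were seen), shown with the match in capitals, 181 bases before the start (GRCm38.p6, chr10:63061339-63061638, plus strand).
Pbld1: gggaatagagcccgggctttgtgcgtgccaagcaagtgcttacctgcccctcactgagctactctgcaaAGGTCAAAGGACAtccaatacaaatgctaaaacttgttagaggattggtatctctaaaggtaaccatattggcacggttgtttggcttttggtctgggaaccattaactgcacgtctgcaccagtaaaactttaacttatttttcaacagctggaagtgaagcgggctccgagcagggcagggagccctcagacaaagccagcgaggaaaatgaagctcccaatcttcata
The stricter form with AGGTCA lay in 0 of the 297. The NRF1 element, GCGCA and GCGC with 1 base of any kind between them, was chosen after the values were seen and lay in 39 of 297 higher genes (13.1%), 4 of 111 lower genes (3.6%) and 1253 of 14951 tested genes (8.38%). Over all respiratory chain lists it lay in 18 of 67 genes (26.9%), called or not, in mitochondrial ribosomal proteins in 13 of 69 (18.8%) and in cytosolic ones in 5 of 59 (8.47%). The ESRRA element TNAAGGTCA, also chosen later, lay in 0 of the 297 higher genes, in 2 of 111 lower genes (1.8%) and in 167 of 14951 tested genes (1.12%). It lay in 3 of 67 respiratory chain genes (4.48%), 1 of 28 genes of pyruvate dehydrogenase and the TCA cycle (3.57%), 2 of 59 cytosolic ribosomal protein genes (3.39%), 0 of 20 genes of fatty acid oxidation and 0 of 69 mitochondrial ribosomal protein genes. No match says only that these letters are not within the 300 bases searched. The promoters of Mrpl12 (chr11:120484387-120484686, plus strand) and of Sdha, the flavoprotein of complex II, named after its values were seen (chr13:74350191-74350490, minus strand), are shown with NRF1 elements in capitals, 1 of them in Mrpl12, read on the other strand, and 3 in Sdha.
Mrpl12: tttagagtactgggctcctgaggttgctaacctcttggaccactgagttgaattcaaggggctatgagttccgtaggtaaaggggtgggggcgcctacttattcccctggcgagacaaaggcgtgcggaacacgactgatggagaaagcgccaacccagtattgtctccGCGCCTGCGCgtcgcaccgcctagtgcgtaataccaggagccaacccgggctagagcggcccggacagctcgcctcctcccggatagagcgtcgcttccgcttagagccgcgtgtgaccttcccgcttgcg
Sdha: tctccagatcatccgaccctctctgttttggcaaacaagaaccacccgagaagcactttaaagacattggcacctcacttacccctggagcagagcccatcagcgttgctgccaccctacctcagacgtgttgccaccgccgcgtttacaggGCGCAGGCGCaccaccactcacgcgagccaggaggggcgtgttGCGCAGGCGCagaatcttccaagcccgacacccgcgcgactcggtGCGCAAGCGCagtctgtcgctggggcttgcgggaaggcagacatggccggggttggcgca

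Classical targets of PPARG were higher in most cases, and few passed the test. Of 33 targets 30 had a fold change above 0 with a median of 1.28, and 3 passed, Cyp4b1, Plin5 and Slc27a1. Over all tested genes 46.1% had a fold change above 0 and 1.55% passed as higher. At an unadjusted p under 0.05 in edgeR 21 targets were higher and 1 lower, beside 17.4% of all genes in either direction. In CPM the groups did not overlap in 23 targets upward and 1 downward, beside 13.4% and 10.4% of all tested genes. Plin5, a lipid droplet protein that ties droplets to mitochondria, had 79.5, 130.2 and 74.4 CPM with rosiglitazone, against 19.9, 26.9 and 11.3 CPM on diet alone (2.29 ± 0.39, adjusted p = 0.0257). Slc27a1, a fatty acid transporter, had 1174, 1292 and 1253 CPM with rosiglitazone, against 553, 354 and 299 CPM on diet alone (1.63 ± 0.32, adjusted p = 0.0361). Both were apart between the groups, as was every called gene. Fabp4, the fatty acid binding protein of adipocytes, had 3704, 4229 and 3617 CPM with rosiglitazone, against 2674, 1141 and 1076 CPM on diet alone and did not pass (1.24 ± 0.44, adjusted p = 0.181). Adipoq, the gene of adiponectin, had 1676, 1864 and 1759 CPM with rosiglitazone, against 1679, 546 and 453 CPM on diet alone (0.98 ± 0.55, adjusted p = 0.398), and the fatty acid receptor gene Cd36 had 4594, 5327 and 4574 CPM with rosiglitazone, against 4891, 1809 and 1465 CPM on diet alone (0.83 ± 0.60, adjusted p = 0.514). For Adipoq and Cd36 diet replicate 1 was level with the libraries given rosiglitazone, and diet replicates 2 and 3 were lower, as in the sum of the adipocyte markers. Pck1, the enzyme that starts glyceroneogenesis (1.15 ± 0.41, adjusted p = 0.182), the glycerol kinase gene Gk (1.52 ± 0.65, adjusted p = 0.264) and Angptl4, an inhibitor of lipoprotein lipase (0.86 ± 0.52, adjusted p = 0.432), did not pass. Without diet replicate 1 the count of called targets was 15 at a median of 1.84, and with it as the only diet library 0 at a median of 0.59. The receptor gene Pparg itself had 138, 185 and 163 CPM with rosiglitazone, against 185, 93.9 and 77.02 CPM on diet alone (0.45 ± 0.45, adjusted p = 0.646), so its groups overlapped.

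Few genes of lipid storage and release passed the test, which 1.55% of all genes passed as higher and 0.593% as lower. In triglyceride synthesis Gpat4, which adds the starting acyl chain to glycerol phosphate, was the 1 called gene of 25, with 311, 301 and 289 CPM with rosiglitazone, against 124, 108 and 83.8 CPM on diet alone (1.51 ± 0.23, adjusted p = 0.0186). In lipolysis Ces1f, a carboxylesterase, was the 1 called of 22, with 259.7, 206 and 203 CPM with rosiglitazone, against 81.9, 44.3 and 58.9 CPM on diet alone (1.85 ± 0.36, adjusted p = 0.0338), and reads of the close paralog Ces1d (1.58 ± 0.38, adjusted p = 0.0643) can be mixed with it. Pnpla2, the adipose triglyceride lipase, had 2326, 2882 and 2251 CPM with rosiglitazone, against 1112, 655 and 555 CPM on diet alone and did not pass (1.68 ± 0.39, adjusted p = 0.0592). In each of these genes all rosiglitazone libraries were above all diet libraries, as in every gene called higher and in 13.4% of all tested genes. In lipolysis the groups did not overlap in 17 of 22 genes upward and 1 downward. Among genes of fatty acid uptake Slc27a1 and Scarb1, a lipoprotein receptor (1.20 ± 0.24), were called, and among droplet proteins Plin5 and Hsd17b11 (1.35 ± 0.24). Without diet replicate 1 lipolysis had 13 called genes.

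Of 24 genes of fatty acid synthesis 0 rose and 1 fell, beside 1.55% of all genes higher and 0.593% lower. Scd2, a desaturase that puts a double bond into stearate, was the called gene, with 66.5, 61.6 and 69.6 CPM with rosiglitazone, against 459, 226 and 113 CPM on diet alone (-2.01 ± 0.43, adjusted p = 0.0445). Its relative Scd1, named with Fasn after its values were seen, had 3013, 6531 and 3649.9 CPM with rosiglitazone, against 26085, 10127 and 9570.0 CPM on diet alone and did not pass (-1.79 ± 0.58, adjusted p = 0.15), though no library with rosiglitazone reached the lowest diet library. Acacb, the acetyl-CoA carboxylase that controls entry of fatty acids into mitochondria, had 624, 974 and 607 CPM with rosiglitazone, against 163, 261 and 195 CPM on diet alone and narrowly missed the threshold (1.83 ± 0.42, adjusted p = 0.0542). Fasn, the fatty acid synthase gene, had 2145, 2722 and 2365 CPM with rosiglitazone, against 2771, 1301 and 666 CPM on diet alone, with diet replicate 1 above all 3 libraries with rosiglitazone (0.61 ± 0.54, adjusted p = 0.607). As a share of the adipocyte marker sum the 24 genes came to 20.4, 28.1 and 22.5% with rosiglitazone, against 68.7, 69.1 and 70.4% on diet alone. Their plain sums overlapped, at 9464, 14873 and 10703 CPM with rosiglitazone, against 33598, 13904 and 12014 CPM on diet alone. Adipocyte markers such as Fabp4, Adipoq and Pck1 are also PPARG targets, so the drug may move the denominator of this share too, which was not tested. This share was almost the same in the 3 diet libraries, whose adipocyte sums differed, and Scd1 made up 31.8% to 43.9% of the list's CPM with rosiglitazone and 72.8% to 79.7% on diet. Without Scd1 the share was 13.9, 15.7 and 14.8% with rosiglitazone, against 15.4, 18.8 and 14.3% on diet alone, and the groups overlapped.

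**Figure D5:**
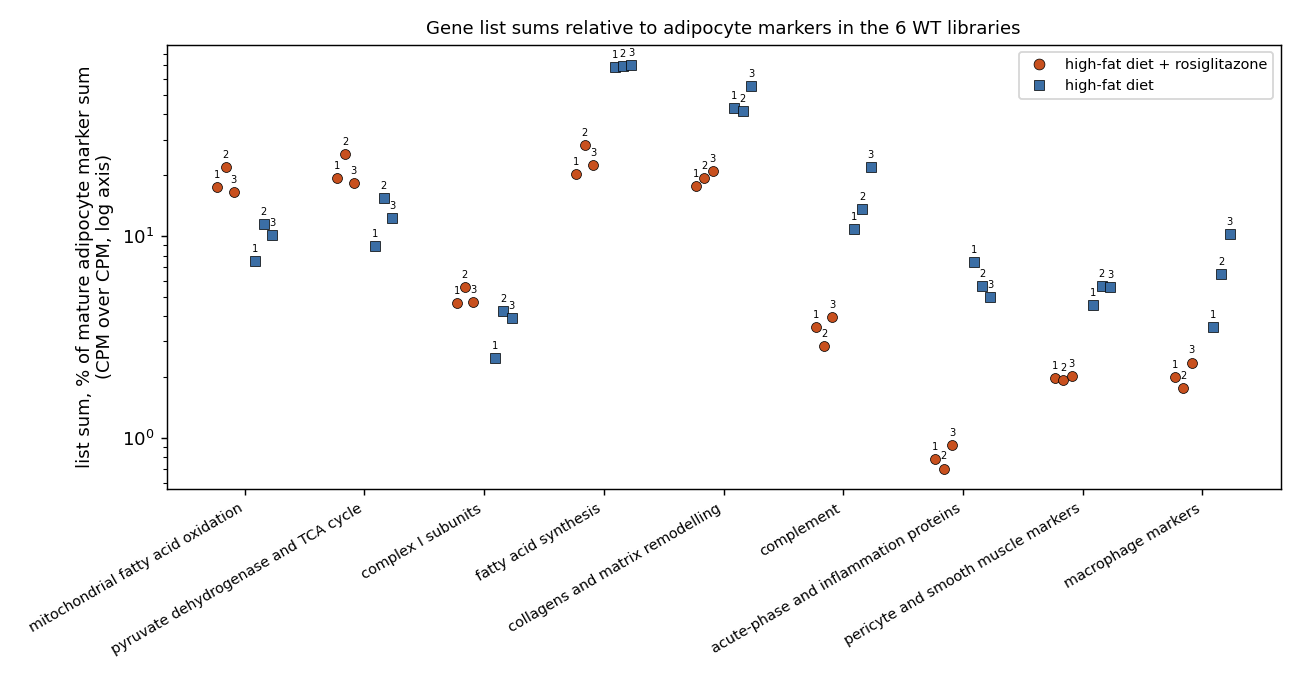
Sum of each gene list as a percentage of the mature adipocyte marker sum in the same library (log axis), with circles for rosiglitazone and squares for diet alone. Fatty acid synthesis lies at 20.4% to 28.1% with rosiglitazone against 68.7% to 70.4% on diet with Scd1, and the groups overlap without it. Acute-phase proteins lie at 0.704% to 0.925% with rosiglitazone against 5.01% to 7.42% on diet, and oxidation and TCA cycle lists lie above their diet values. The plain CPM sums of fatty acid synthesis, collagens and pericyte markers overlap between the groups, and the denominator holds PPARG targets.

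Of 31 genes known from brown and beige fat 4 rose, Otop1, Clstn3, Cox8b and Plin5, and 0 fell, with a median of 1.05. Over all genes 1.55% rose. In 11 edgeR fits without 1 library the calls held in 3, 3, 2 and 5, in that order. With the muscle covariate Plin5 stayed called (adjusted p = 0.046), and Otop1 (0.0576), Clstn3 (0.0577) and Cox8b (0.0529) did not. With the adipocyte covariate Clstn3 stayed called (0.0393), and Otop1 (0.108), Cox8b (0.164) and Plin5 (0.0564) did not. Clstn3, whose locus gives rise to a brown fat regulator in mice, had 46.5, 65.9 and 43.8 CPM with rosiglitazone, against 13.1, 9.72 and 4.12 CPM on diet alone (2.53 ± 0.51, adjusted p = 0.0399). Cox8b had 17.4, 33.04 and 13.6 CPM with rosiglitazone, against 2.82, 5.25 and 1.88 CPM on diet alone. Both were lowest in diet replicate 3. Ucp1, the uncoupling protein of brown fat, had 45.1, 115 and 23.7 CPM with rosiglitazone, against 0, 18.1 and 0 CPM on diet alone and did not pass (3.34 ± 1.77, adjusted p = 0.373). It was listed without a read in diet replicates 1 and 3, and its group on diet rested on replicate 2. Cidea, a droplet protein of beige cells, had 26.2, 61.4 and 14.8 CPM with rosiglitazone, against 2.43, 6.48 and 1.36 CPM on diet alone (3.32 ± 0.83, adjusted p = 0.0781), and Elovl3, an elongase of brown fat, had 3.20, 15.4 and 8.05 CPM with rosiglitazone, against 0.304, 0 and 1.09 CPM on diet alone (4.27 ± 1.32, adjusted p = 0.143). For these 3 genes replicate 2 was the highest library with rosiglitazone.

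Other metabolic lists held few calls, beside 1.55% of all genes higher and 0.593% lower in edgeR. In branched-chain amino acid catabolism 3 of 28 genes rose, among them the aminotransferase gene Bcat2 (1.10 ± 0.20, adjusted p = 0.0306) and Bckdha of the ketoacid dehydrogenase (1.70 ± 0.35, adjusted p = 0.0427), and 1 fell, the amino acid transporter Slc7a5, with 6.08, 4.11 and 7.36 CPM with rosiglitazone, against 10.8, 12.4 and 15.1 CPM on diet alone (-1.13 ± 0.25, adjusted p = 0.0497). Among 33 tested peroxisomal genes Pex6, an ATPase that recycles the import receptor, had 116, 135 and 105 CPM with rosiglitazone, against 44.5, 47.4 and 43.1 CPM on diet alone (1.40 ± 0.16, adjusted p = 0.00848), and Ech1 also rose (1.85 ± 0.40, adjusted p = 0.0485). For Pex6 the diet libraries were nearly equal, and its call was present in all 11 fits that left out 1 library. In insulin signalling 1 of 26 passed, Tbc1d4, which holds back glucose transporter vesicles (0.77 ± 0.16, adjusted p = 0.0436), while Slc2a4, the insulin-responsive glucose transporter, had 253, 262 and 282 CPM with rosiglitazone, against 163, 87.1 and 55.2 CPM on diet alone (1.39 ± 0.58, adjusted p = 0.249). Sod1 (1.55 ± 0.29) and the mitochondrial thioredoxin reductase gene Txnrd2 (1.16 ± 0.21) were the 2 called of 25 antioxidant genes. Glycolysis and glucose uptake genes were called in 0 of 26 genes in edgeR, where 6 higher and 3 lower had an unadjusted p under 0.05, 1 higher and 1 lower in DESeq2, and 9 higher and 2 lower in limma-voom. Genes of the mTORC1 pathway, in which Raptor is the scaffold, were called in 0 of 30 genes in edgeR, where 12 higher and 1 lower had an unadjusted p under 0.05, 5 higher and 0 lower in DESeq2, and 14 higher and 2 lower in limma-voom, with a median of 0.29. The shares over all genes were 17.4% at an unadjusted p under 0.05. They were 5.5% higher and 3.2% lower in DESeq2, and 16.9% higher and 10.3% lower in limma-voom. Rptor had 119, 126 and 110.5 CPM with rosiglitazone, against 92.01, 80.1 and 73.9 CPM on diet alone (0.53 ± 0.15, adjusted p = 0.103).

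Sphingolipid genes changed in both directions around Sptlc3. Acer2, a ceramidase of the Golgi that releases sphingosine, had 275, 318 and 247 CPM with rosiglitazone, against 92.8, 76.7 and 61.8 CPM on diet alone (1.86 ± 0.29, adjusted p = 0.0207). Cers6, a ceramide synthase, had 18.9, 15.7 and 20.04 CPM with rosiglitazone, against 67.2, 35.4 and 37.8 CPM on diet alone (-1.36 ± 0.29, adjusted p = 0.0438), and Cerk, which phosphorylates ceramide, had 36.1, 28.7 and 32.1 CPM with rosiglitazone, against 53.6, 62.1 and 70.8 CPM on diet alone (-0.94 ± 0.16, adjusted p = 0.0248). Acer2 was higher and Cers6 and Cerk lower in all 3 libraries with rosiglitazone, and no called gene overlapped between the groups. The other subunits of serine palmitoyltransferase did not pass: Sptlc1 had 40.3, 43.4 and 37.9 CPM with rosiglitazone, against 42.9, 30.6 and 29.5 CPM on diet alone (0.24 ± 0.18, adjusted p = 0.525) and Sptlc2 had 60.1, 61.97 and 54.4 CPM with rosiglitazone, against 57.8, 51.4 and 55.6 CPM on diet alone (0.10 ± 0.17, adjusted p = 0.808). These were named after their values were seen. Of the list's 29 tested genes 2 were higher and 2 lower, with a median of -0.08, beside 1.55% of all genes higher and 0.593% lower.

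Genes of acute-phase and secreted inflammatory proteins fell in part. Of 23 tested genes 3 fell, against 0.593% of all genes, 0 rose, and the median was -1.35. Beside Serpina3n these were Serpina1a, an antitrypsin gene, with 0.604, 0.902 and 1.27 CPM with rosiglitazone, against 19.7, 13.02 and 8.55 CPM on diet alone (-3.92 ± 0.45, adjusted p = 0.00891), and Lrg1, a leucine-rich glycoprotein, with 38.3, 43.02 and 40.5 CPM with rosiglitazone, against 403, 138 and 119 CPM on diet alone (-2.44 ± 0.42, adjusted p = 0.0282). Lrg1 was nearly constant among the rosiglitazone libraries and highest in diet replicate 1. Reads of Serpina1a can be mixed with those of its copies, of which Serpina1c, named after its values were seen, had 0 reads with rosiglitazone and 140 on diet. Hp, the haemoglobin-binding haptoglobin, had 67.6, 100.3 and 109 CPM with rosiglitazone, against 1961, 493 and 342 CPM on diet alone and did not pass (-3.33 ± 0.75, adjusted p = 0.0536). With the adipocyte-rich diet replicate 1 as the only diet library the list had 4 lower genes at a median of -1.74. Adipokine genes were called in 0 of 24 genes in edgeR, where 1 higher and 3 lower had an unadjusted p under 0.05, 0 higher and 3 lower in DESeq2, and 9 higher and 3 lower in limma-voom. For comparison, 17.4% of all genes had an unadjusted p under 0.05. DESeq2 called 5.5% of genes higher and 3.2% lower, and limma-voom 16.9% and 10.3%. Agt, the precursor of angiotensin, had 0.284, 1.12 and 1.01 CPM with rosiglitazone, against 18.7, 4.12 and 3.44 CPM on diet alone (-3.45 ± 0.76, adjusted p = 0.0509), and Rbp4, a retinol carrier, had 15.2, 17.5 and 23.8 CPM with rosiglitazone, against 172, 60.5 and 47.1 CPM on diet alone (-2.31 ± 0.56, adjusted p = 0.0696). In both genes diet replicate 1 was by far the highest library. Lep, the gene of leptin, had 1109.6, 1456 and 1529 CPM with rosiglitazone, against 3645, 952 and 402 CPM on diet alone, and its groups overlapped (-0.29 ± 0.81, adjusted p = 0.889). Fgf21 stayed low, at 0.391, 0.342 and 0.634 CPM with rosiglitazone, against 1.04, 0.344 and 0.313 CPM on diet alone.

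Some complement and vascular wall genes fell. C3, on which all complement pathways meet, had 142, 165 and 299 CPM with rosiglitazone, against 1003, 624 and 603 CPM on diet alone (-1.88 ± 0.38, adjusted p = 0.0386), and C6 of the membrane attack complex had 4.09, 2.71 and 3.68 CPM with rosiglitazone, against 28.9, 14.1 and 9.80 CPM on diet alone (-2.34 ± 0.47, adjusted p = 0.0399). They were the 2 called of 24 complement genes, whose median was -0.71. C4b had 310.3, 308 and 402 CPM with rosiglitazone, against 1412, 601 and 818 CPM on diet alone and did not pass (-1.47 ± 0.37, adjusted p = 0.0713). Of 14 pericyte and smooth muscle markers 2 fell, Rgs5, a regulator of G protein signalling that marks pericytes, with 71.3, 79.5 and 68.2 CPM with rosiglitazone, against 538, 238 and 191 CPM on diet alone (-2.14 ± 0.40, adjusted p = 0.0324), and Kcnj8, a potassium channel subunit of the same cells, with 4.05, 1.55 and 3.23 CPM with rosiglitazone, against 18.3, 8.55 and 10.9 CPM on diet alone (-2.10 ± 0.43, adjusted p = 0.0425). Acta2, the actin of smooth muscle, had 37.5, 34.5 and 23.3 CPM with rosiglitazone, against 317, 69.4 and 62.3 CPM on diet alone (-2.23 ± 0.61, adjusted p = 0.0972). As a share of adipocyte markers the pericyte list came to 1.98, 1.94 and 2.02% with rosiglitazone, against 4.57, 5.62 and 5.59% on diet alone. Its plain sums overlapped, at 921, 1029 and 961 CPM with rosiglitazone, against 2234, 1131 and 954 CPM on diet alone. Endothelial markers, at a median of 0.30, were called in 0 of 18 genes in edgeR, where 4 higher and 2 lower had an unadjusted p under 0.05, 1 higher and 1 lower in DESeq2, and 8 higher and 2 lower in limma-voom. Across all genes edgeR called 0.593% lower, and 17.4% had an unadjusted p under 0.05. DESeq2 called 5.5% higher and 3.2% lower, and limma-voom 16.9% higher and 10.3% lower.

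Macrophage genes fell in part. Of 26 markers 5 were lower, against 0.593% of all genes, 0 were higher, and the median was -0.75. Itgax, an integrin subunit of inflammatory macrophages and dendritic cells, had 7.50, 6.22 and 9.20 CPM with rosiglitazone, against 34.01, 18.9 and 20.4 CPM on diet alone (-1.68 ± 0.28, adjusted p = 0.0245). Mpeg1, a pore-forming protein of phagocytes, had 56.04, 42.2 and 59.7 CPM with rosiglitazone, against 163, 140.1 and 166 CPM on diet alone (-1.57 ± 0.28, adjusted p = 0.0287), and Spi1, the transcription factor of the myeloid lineage, had 6.57, 4.98 and 5.58 CPM with rosiglitazone, against 10.8, 12.5 and 15.5 CPM on diet alone (-1.18 ± 0.21, adjusted p = 0.0287). The lowest of the 6 libraries for each was rosiglitazone replicate 2, and diet replicate 1 was within or above the other diet libraries except for Spi1, where it was the lowest of the diet group. Ctss, a lysosomal protease that prepares antigens (-1.52 ± 0.28), and Cd84 (-1.23 ± 0.23), named after its values were seen, completed the 5. Without diet replicate 1 the list had 7 lower genes, with it as the only diet library 1 and with the muscle covariate 0. Summed macrophage markers were 927, 935 and 1123 CPM with rosiglitazone, against 1726, 1296 and 1744 CPM on diet alone. B-cell markers were called in 0 of 20 genes in edgeR, where 0 higher and 3 lower had an unadjusted p under 0.05, 0 higher and 2 lower in DESeq2, and 0 higher and 3 lower in limma-voom. T and NK cell markers were called in 0 of 25 genes in edgeR, where 0 higher and 0 lower had an unadjusted p under 0.05, 0 higher and 0 lower in DESeq2, and 0 higher and 2 lower in limma-voom. Beside these counts, 17.4% of all genes had an unadjusted p under 0.05. DESeq2 called 5.5% of genes higher and 3.2% lower, and limma-voom 16.9% and 10.3%. Of 22 genes of antigen presentation 3 fell, H2-DMb1 (-1.41 ± 0.27), H2-Aa (-1.33 ± 0.27) and H2-Ab1 (-1.25 ± 0.26), at a median of -1.06. H2-Aa, a chain of MHC class II, had 163, 85.5 and 138 CPM with rosiglitazone, against 282, 371 and 319 CPM on diet alone. B cells carry these genes too, and with diet replicate 1 as the only diet library the list's median was -0.19 and that of macrophage markers -0.69. With the B-cell marker sum as a covariate, where 2.46% of all genes were higher and 2.5% lower, the antigen presentation list had 3 higher and 6 lower genes at a median of -0.21, and the macrophage list 0 higher and 7 lower at -1.10. Collagens and matrix genes were called in 0 of 31 genes in edgeR, where 2 higher and 6 lower had an unadjusted p under 0.05, 1 higher and 0 lower in DESeq2, and 6 higher and 2 lower in limma-voom. As a share of adipocyte markers their sum was 17.6, 19.3 and 21.02% with rosiglitazone, against 42.9, 41.6 and 55.6% on diet alone. Their plain sums overlapped, at 8184, 10234 and 10001 CPM with rosiglitazone, against 20990, 8372 and 9481 CPM on diet alone.

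The WT response was set against that of KO tissue through the interaction of genotype and drug, which passed in 28 genes (0.104%), and 2840 (10.5%) had an unadjusted p under 0.05. With the WT treatments as the titles name them, a fit added after the data were seen, it passed in 154 genes, 4 of them shared with the 28. In KO tissue alone 4 genes (0.0148%) passed, over 3 libraries with rosiglitazone and 2 on diet. Rptor, the gene deleted in KO adipocytes, had 88.3, 82.4 and 91.7 CPM with rosiglitazone, against 56.5 and 69.6 CPM on diet in KO tissue, so that the KO libraries with rosiglitazone lay within the range of the WT libraries on diet. These counts cover the whole gene and do not resolve the deleted part. Kcnt1 had 10.02, 14.99 and 11.2 CPM with rosiglitazone, against 1.56, 1.18 and 1.46 CPM on diet alone in WT tissue. In KO tissue it had 0.623, 0.527 and 0.933 CPM with rosiglitazone, against 0.837 and 1.24 CPM on diet, and the interaction was -3.67 ± 0.42 (adjusted p = 0.0319). Thus its rise was seen in WT libraries, and in KO tissue the libraries with rosiglitazone and those on diet overlapped. Itgax had 65.3, 59.03 and 80.5 CPM with rosiglitazone, against 34.4 and 21.3 CPM on diet in KO tissue, the opposite direction to WT, with an interaction of 2.98 ± 0.43 (adjusted p = 0.0448). Cerk likewise had 99.7, 110.3 and 123 CPM with rosiglitazone, against 68.6 and 69.7 CPM on diet in KO tissue, with an interaction of 1.63 ± 0.24 (adjusted p = 0.0493). The KO responses of Itgax and Cerk did not pass on their own (adjusted p = 0.2685 and 0.3105 in edgeR). In KO tissue macrophage markers summed to 3737, 3262 and 4053 CPM with rosiglitazone, against 4659 and 1629 CPM on diet. Adipocyte markers there summed to 7159, 8400 and 7811 CPM with rosiglitazone, against 11669 and 3838 CPM on diet. The part of such differences in the interaction was not tested. Under the titles the interaction was 2.53 ± 0.43 for Kcnt1 (adjusted p = 0.0426), -0.39 ± 0.41 for Itgax (adjusted p = 0.716) and -0.26 ± 0.23 for Cerk (adjusted p = 0.664). Sptlc3 had 5.17, 5.80 and 2.80 CPM with rosiglitazone in KO tissue, against no read on diet, and Btnl4 had 8.91, 8.13 and 8.96 CPM with rosiglitazone, against 0 and 0.160 CPM on diet. Neither interaction passed, at an adjusted p of 0.603 for Sptlc3 and 0.619 for Btnl4. For Chchd10, at a KO log2 fold change of 0.01 ± 0.52, the interaction was -3.88 ± 0.71 and did not pass (adjusted p = 0.0947), and for Cyc1 it did not pass either (adjusted p = 0.141).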

How the data were processed

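Per the labels' protocols, flash-frozen inguinal fat gave total RNA through Trizol, and libraries were built with the Nextera XT kit of Illumina. The deposited files hold, per the file headers, Salmon's estimated counts per transcript and TPM, its length-scaled abundance. The submitters' processing notes name Salmon and edgeR and the builds GRCm38 and mm10. Tool versions and the use of strand were not given in the sources here.

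Estimated counts were summed per gene after 99.7% of 132288 transcripts matched the GENCODE M21 annotation, which gave 52282 genes, and rounded to whole numbers. The deposited TPM values were dominated by small RNAs, so levels are CPM on the TMM scale. They are not divided by gene length, so genes are compared between libraries only. All 11 libraries were fitted in 1 model of group means with edgeR 4.0.16 (quasi-likelihood, robust, filterByExpr; limma 3.58.1, DESeq2 1.42.0, R 4.3.3, Python 3.11.15), with Benjamini-Hochberg adjustment over 26960 genes and a threshold of 0.05. An SE is the log2 fold change divided by the root of F. In simulated data with 200 changed genes, 13% of 2-fold and 83% of 4-fold changes were recovered. Groups followed the genotype and treatment characteristics.

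The 52 gene lists, the comparison and the genes were chosen with earlier results of these data known. Named are 16 fixed genes, the 12 highest and 12 lowest called genes that are not predicted genes, have an average log2 CPM of at least 1 and do not overlap between groups, and up to 4 members of each list with the smallest p. Those outside the rule are marked in the text. Promoters are RefSeq sequences for GRCm38.p6, found for 160 of 222 named genes. Alternatives were other scalings, filters, tools, covariates and a replicate block, and leaving out each library. Intervals for counts are not given. Depth of 13035346 to 40925952 estimated reads per library sets the counting error.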

Additional observations from a re-analysis of the deposited data

Results flagged for a closer look

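The response to rosiglitazone of 3 named genes differed between the genotypes by the interaction term of edgeR's quasi-likelihood test, where 28 of 26960 genes (0.104%) passed. For Kcnt1 the KO response minus the WT response was -3.67 ± 0.42 on the log2 scale (adjusted p = 0.0319), with -0.57 ± 0.33 in KO tissue and 3.10 ± 0.28 in WT tissue. For Itgax it was 2.98 ± 0.43 (adjusted p = 0.0448), with 1.29 ± 0.32 in KO tissue and -1.68 ± 0.28 in WT tissue. For Cerk it was 1.63 ± 0.24 (adjusted p = 0.0493), with 0.69 ± 0.18 in KO tissue and -0.94 ± 0.16 in WT tissue. None of these KO responses passed on its own (adjusted p = 0.6996 for Kcnt1, 0.2685 for Itgax and 0.3105 for Cerk in the same test). With the WT treatments as the sample titles name them these interactions were 2.53 ± 0.43 for Kcnt1 (adjusted p = 0.0426), -0.39 ± 0.41 for Itgax (adjusted p = 0.716) and -0.26 ± 0.23 for Cerk (adjusted p = 0.664). The KO diet group had 2 libraries, and without single libraries the number of genes with a different response lay between 1 and 348.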

How the results depend on the processing

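Of 578 genes changed in WT tissue and 28 with a different response in KO tissue, RLE scaling gave 512 and 28, upper-quartile scaling 826 and 44, no filter 541 and 47, and a filter of 1 CPM in 3 libraries 711 and 44. DESeq2 gave 1978 and 516, limma-voom with library weights 7325 and 61, protein-coding genes alone 947 and 52, and transcript length offsets 336 and 4. The 6 WT libraries alone gave 313 changed genes. Marker covariates gave 1339 and 260 for B cells, 144 and 1 for skeletal muscle and 1867 and 666 for adipocytes, the last with 776 higher and 1091 lower in WT tissue. Leaving out 1 library gave 18 to 2779 changed genes, the lowest without rosiglitazone replicate 2 and the highest without diet replicate 1, with 182 to 225 without KO libraries given rosiglitazone and 1063 and 1080 without KO libraries on diet. It gave 1 to 348 genes with a different response, the highest without KO diet replicate 2. Where a group of 2 lost 1 library, the lone one is assumed to vary like the other groups. After the data were seen, 3 alternatives were added. The WT treatments as the sample titles name them gave 154 genes with a different response, diet replicate 1 as the only WT diet library gave 101 and 7, and the WT libraries under 0.5% of muscle marker reads gave 0 and 0 (1215 and 952 at an unadjusted p under 0.05). The causes were not tested. In the 11 fits without 1 library 15 of the 578 genes were called every time, 12 higher and 3 lower.

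The main fit used no pairing. Same-numbered WT libraries deviated from their group means with correlations of -0.12, -0.301 and 0.09, and differently numbered ones with -0.266 to 0.351. These values cannot show whether samples were paired, since cell type markers also differed between the libraries. With the replicate block 430 genes changed and 1 had a different response.

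Over 26 alternatives, the 85 called of 222 named genes gave 2210 values, of which 1399 stayed called in the same direction, 811 lost the call and 0 changed sign. The groups of called genes did not overlap in CPM, so a change of sign was hardly possible where only libraries were left out. Among the genes not called, 17 genes changed sign in 42 of 3546 values. Bank1 turned from -1.95 to 1.08 with the B-cell covariate (adjusted p = 0.0349 in edgeR). Bank1 is itself a member of the marker sum used as that covariate, so this value cannot show a reversal.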

Other observations

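Genes outside the naming rule, chosen after their values were seen, included several that rose. Slc39a8, a zinc and manganese transporter, had 45.1, 52.2 and 30.2 CPM with rosiglitazone, against 7.24, 5.70 and 10.7 CPM on diet alone (2.43 ± 0.27, adjusted p = 0.00848 in edgeR's quasi-likelihood test). Pltp, which moves phospholipids between lipoproteins, had 651, 668 and 588 CPM with rosiglitazone, against 244, 109 and 107 CPM on diet alone (2.05 ± 0.41, adjusted p = 0.0392), and Chdh, the mitochondrial choline dehydrogenase, had 375, 389 and 346 CPM with rosiglitazone, against 96.8, 74.01 and 59.8 CPM on diet alone (2.27 ± 0.26, adjusted p = 0.00891). Gramd1b, which carries cholesterol from the plasma membrane to the endoplasmic reticulum, had 184, 178 and 166 CPM with rosiglitazone, against 64.2, 75.5 and 57 CPM on diet alone (1.43 ± 0.15, adjusted p = 0.0083). Slc39a8 and Gramd1b were called in all 11 fits that left out 1 library. Epor, the erythropoietin receptor, was higher too (1.67 ± 0.26, adjusted p = 0.0208), and so was Rbp7, a retinol binding protein of adipose tissue (2.30 ± 0.30, adjusted p = 0.0123).

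Further genes outside the rule, also chosen after their values were seen, fell. Clec7a, the receptor dectin, had 3.66, 3.52 and 5.33 CPM with rosiglitazone, against 21.3, 12.7 and 11.1 CPM on diet alone (-1.86 ± 0.34, adjusted p = 0.0306), and Cybb, the catalytic subunit of the phagocyte oxidase, had 37.5, 29.1 and 41.03 CPM with rosiglitazone, against 68.9, 79.8 and 93.2 CPM on diet alone (-1.17 ± 0.25, adjusted p = 0.0444). Soat1, which esterifies cholesterol for storage, had 33.9, 25.9 and 31.3 CPM with rosiglitazone, against 63.1, 70.1 and 84.9 CPM on diet alone (-1.26 ± 0.21, adjusted p = 0.0248), and Cd44, a hyaluronan receptor, had 28.9, 23.4 and 36.1 CPM with rosiglitazone, against 67.2, 70.7 and 89.6 CPM on diet alone (-1.37 ± 0.24, adjusted p = 0.0287). Igfbp3, a carrier of insulin-like growth factors, had 8.88, 17.8 and 15.3 CPM with rosiglitazone, against 69.6, 39.4 and 29.2 CPM on diet alone (-1.72 ± 0.36, adjusted p = 0.0438).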
